A study of Mus musculus with 6 samples.

Results

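The translation initiation factor genes were examined in N2a cells, a mouse neuroblastoma line, after knockdown of circRtn4, a circular RNA made from Rtn4 exons. The set was every protein-coding gene whose symbol begins with Eif, except the Eif2ak kinases, which phosphorylate an initiation factor and were counted with the surrounding pathway. This rule used names only and found 51 genes of the 54532 listed, or of the 22046 listed as protein-coding. A filter on low values, a mean of at least 1 FPKM (reads per gene scaled to gene length and library size) over all libraries, left 48 of the 51 for testing.

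The si-NC group was 3 libraries of N2a cells transfected with a control siRNA, and the si-circRtn4 group was 3 libraries of the same line transfected with an siRNA against circRtn4. The labels give the strain C57BL/6 for every sample and growth in MEM with fetal bovine serum, and they give no dose and no time. The paper names C57BL/6 for its mice and primary neurons and gives no strain for the N2a line, so the labeled strain is uncertain. The labels do not say whether the sequenced cells were differentiated. The paper's methods describe moving transfected N2a cells to a differentiation medium with retinoic acid, without saying whether these libraries were included. All cells came from 1 established line. Nothing in the labels says that the libraries came from separate cultures, so the p-values measure the spread between these samples, which may be technical.

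Initiation begins when eIF1, eIF1A, eIF3, eIF5 and the ternary complex of eIF2, GTP and initiator tRNA assemble on the small ribosomal subunit. The cap-binding protein eIF4E, the scaffold eIF4G and the helicase eIF4A bring that subunit to the 5′ end of an mRNA, where it scans for a start codon. Cells control the process mainly through the eIF4E-binding proteins (4E-BPs), which keep eIF4E from eIF4G until mTOR phosphorylates them, and through phosphorylation of eIF2α, which blocks its recharging by eIF2B. In neurons, local initiation in axons and growth cones is known to feed growth of the neurite. These controls act largely on protein, which mRNA levels do not measure.

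By limma, none of the 48 genes tested passed the threshold of adjusted p under 0.05, against 9.19% of the 12749 genes tested in all. At an unadjusted p under 0.05, 9 were higher (18.8% of the 48, against 13.1% of all genes) and 2 lower (4.17%, against 12.8%). Limma-voom on reads called 5 of the 48, against 12.8% of all genes. The largest difference was in Eif5a, the hypusine-carrying factor that acts in elongation and termination, whose mean level was 254 FPKM in the si-circRtn4 libraries and 365 FPKM in the si-NC libraries (adjusted p = 0.0799). The largest positive log2 fold changes, on log2(FPKM + 1), were 0.37 for Eif4ebp1, which encodes 4E-BP1 (adjusted p = 0.0755), 0.33 for Eif1ad, and 0.28 for both Eif5 and Eif3c. Libraries with the same replicate number deviated together, and with the number as a replicate block Eif5a fell while Eif1ad, Eif5 and Eif3c rose. That made 4 of the 48 called (3 higher and 1 lower), against 19% of all genes in the same fit.

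Sequences of the small RNAs that define the study are given first, because seed matches to them can be looked for in any mRNA. The series title names miR-24-3p as the microRNA that circRtn4 binds. Its mature sequence (RefSeq, GRCm38.p6) has bases 2 to 8, the seed, in capitals. The siRNA is given as the strand the study lists and as its reverse complement, taken here as the guide, with the same bases of the guide and the stretch they would pair with in capitals.
miR-24-3p: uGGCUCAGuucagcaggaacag
si-circRtn4 listed strand: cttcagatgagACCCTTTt
si-circRtn4 guide: aAAAGGGTctcatctgaag

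A match to the miR-24-3p seed (CTGAGCC, sense strand) was found in the longest annotated 3′ UTR of 6 of the 48 tested initiation factor genes (12.5%), against 19.6% of the 10694 tested genes with such a UTR. They were Eif2b2, Eif2d, Eif4ebp1, Eif4ebp2, Eif4g2 and Eif4g3. A match to the seed of the guide (ACCCTTT) was found in 7 of the 48 (14.6%), against 12.5% of those genes. They were Eif3a, Eif4a1, Eif4e, Eif4e3, Eif4g2, Eif5a and Eif5a2. The median log2 fold change (si-circRtn4 minus si-NC) was 0.08 for the 6 genes with a miR-24-3p match and -0.01 for those without. For the 7 genes with a guide match it was -0.01, the same to 2 decimals as for those without. A match is a description of the letters and not a shown site, and no difference between these groups was tested.

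Matches are printed for 6 of these genes whose groups did not overlap, with the 7 matching bases in capitals and 11 bases of the annotated UTR on either side. Positions are those of the capitals on GRCm38. The Eif4ebp1 match lies at chr8:27276515-27276521, that of Eif2d at chr1:131180076-131180082 and that of Eif4g3 at chr4:138208131-138208137, all on the plus strand. The Eif2d match is at base 1435 of a UTR of 1765 bases, whereas the gene is listed as ending far beyond it, at base 131187658. The level of Eif2d is per gene, and which of its transcripts carry the match was not examined. The guide match in Eif5a lies at chr11:69916789-69916795 on the minus strand, that in Eif3a at chr19:60761689-60761695 on the minus strand, and the first of the Eif5a2 matches at chr3:28795744-28795750 on the plus strand.
Eif4ebp1, miR-24-3p match: tcacctttcctCTGAGCCtgggccagtgt
Eif2d, miR-24-3p match: acaaccccactCTGAGCCtctcctccatt
Eif4g3, miR-24-3p match: tttggaccgggCTGAGCCcagctcagaac
Eif5a, guide match: ccacgggctttACCCTTTcctgtgggctc
Eif3a, guide match: aacatttgaaaACCCTTTaagccaactga
Eif5a2, guide match: ctcatgtctggACCCTTTgttcccagcta

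Of the printed matches, that of Eif3a is followed by an A, as the match called 8mer requires, and the other 5 are not. An A also follows the miR-24-3p and guide matches in Eif4g2 and the guide match in Eif4e, which are not printed. The groups overlapped for Eif4g2 and for Eif4e, with log2 fold changes of -0.01 and 0.00. Paralogs with the same match had differences of opposite sign: Eif5a was lower and Eif5a2 higher in every si-circRtn4 library than in any control, and both carry a guide match. Eif4ebp1 and Eif4ebp2 both carry a miR-24-3p match and had log2 fold changes of 0.37 and -0.11.

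Recovered reads numbered 13541198 to 15122063 per library. The initiation factor genes held 1.22% to 1.32% of them in si-NC libraries and 1.24% to 1.32% in si-circRtn4 libraries. Rtn4 read 61.0, 66.8 and 69.8 FPKM after si-NC and 50.1, 56.7 and 62.7 FPKM after si-circRtn4 (log2 fold change -0.22, adjusted p = 0.216, and 0.0447 to 0.439 in the alternatives, the lowest with the replicate block), a gene-level value that cannot separate circRtn4 from the linear mRNA. The knockdown therefore could not be checked in these values. By qRT-PCR in N2a cells, the paper reports efficient knockdown of circRtn4 and no significant change of linear Rtn4 mRNA. Of 15 sympathoadrenal neuroblastoma markers, 13 were over a mean of 1 FPKM, and 6 fell (Phox2a, Gata2, Th, Dbh, Chga and Chgb). Of those that did not pass, Mycn had a log2 fold change of 0.60 (adjusted p = 0.0527, and 0.0068 with the replicate block) and Stmn2 of 0.12. The summed level of the 15 was 2560 to 2815 FPKM in si-NC libraries and 1122 to 1606 FPKM in si-circRtn4 libraries. Chgb alone held means of 1299.7 and 364 FPKM of that sum, and the other 14 summed to 1311 to 1393 FPKM and 823 to 1128 FPKM. Markers of fibroblasts and of blood and immune cells were all under that level, and 1 of 6 glial markers was over it. The part of any marker in the results was not tested. In a bulk sample, fewer cells that express a gene and less of its RNA per cell cannot be told apart.

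Levels per gene length differed widely between the genes. Mean levels of the 48 tested genes ran from 3.15 FPKM (Eif2d) to 349.6 FPKM (Eif1), with a median of 43.2 FPKM against 8.25 FPKM for all genes tested. Mean levels over 100 FPKM were found for 11 of them. The most abundant were Eif1, which guards start codon choice, Eif5a and Eif3h, an eIF3 subunit, at means of 349.6, 309.6 and 275.0 FPKM. Next in order were Eif4b, Eif4ebp1, Eif3b, Eif3c, Eif4g2, Eif4g1, Eif3a and Eif3f, whose means lay from 107 to 159.9 FPKM. In si-NC libraries Eif1 (301 to 338 FPKM) and Eif5a (314 to 392 FPKM) overlapped. In si-circRtn4 libraries every value of Eif1 (351 to 400.4 FPKM) lay above every value of Eif5a (199 to 284 FPKM). Eif4b had means of 158 and 162 FPKM after si-NC and si-circRtn4, and Eif4ebp1 of 139 and 179 FPKM, with overlap between the genes in either group.

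**Figure D1:**
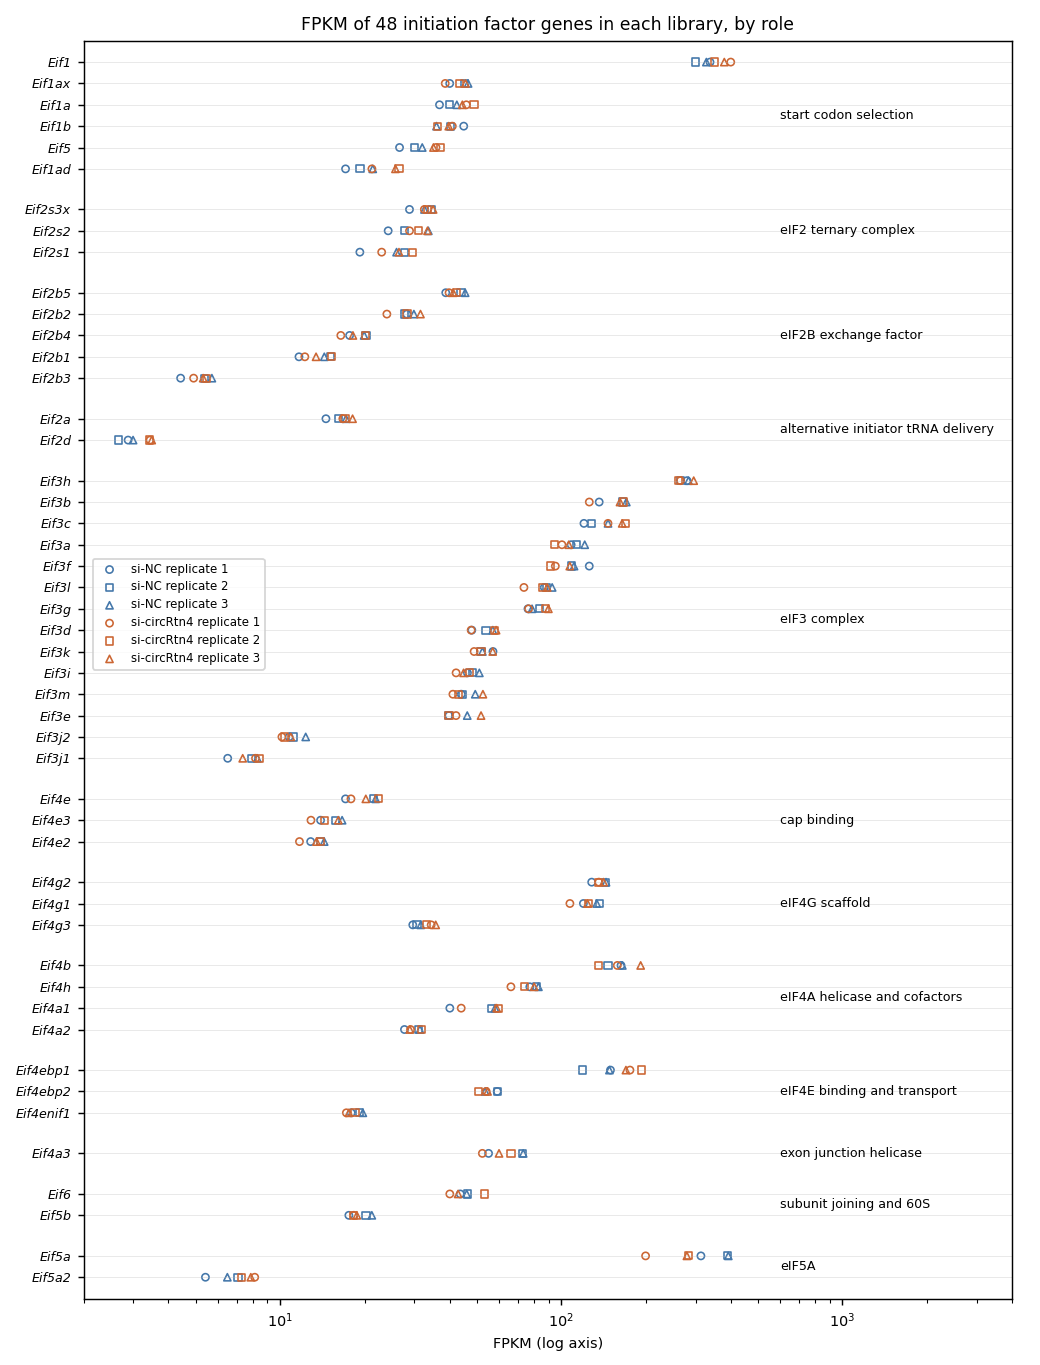
Level of each of the 48 tested genes in each library, in FPKM on a log axis, grouped by role (circle, square and triangle are replicates 1, 2 and 3, blue for si-NC and orange for si-circRtn4). Within a gene the 6 libraries lie close together beside the range between genes, which runs from a mean of 3.15 FPKM for Eif2d to 349.6 FPKM for Eif1.

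Differences were small beside those of other genes. Log2 fold changes were positive for 21 of the 48 genes and negative for 27, with a median of -0.01 against 0.00 for all genes tested. With libraries scaled to equal FPKM sums (TPM), which moved the median of all genes to 0.08, 16 of the negative ones turned positive, for 37 positive and 11 negative. The median size was 0.09 against 0.14, and 79.2% of the 48 lay within 0.2 of zero against 62.9% of all genes. The 48 also had a higher median level (43.2 FPKM against 8.25 FPKM), and no comparison with genes of matched level was made. The 95% interval of the log2 fold change stayed within 0.5 of zero for 44 of the 48. The 4 others were Eif5a, Eif4ebp1, Eif1ad and Eif3c. All 3 si-circRtn4 libraries lay above all 3 si-NC libraries for 7 genes (14.6%, against 16.2% of all genes) and below them for 3 (6.25%, against 15.5%).

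**Figure D2:**
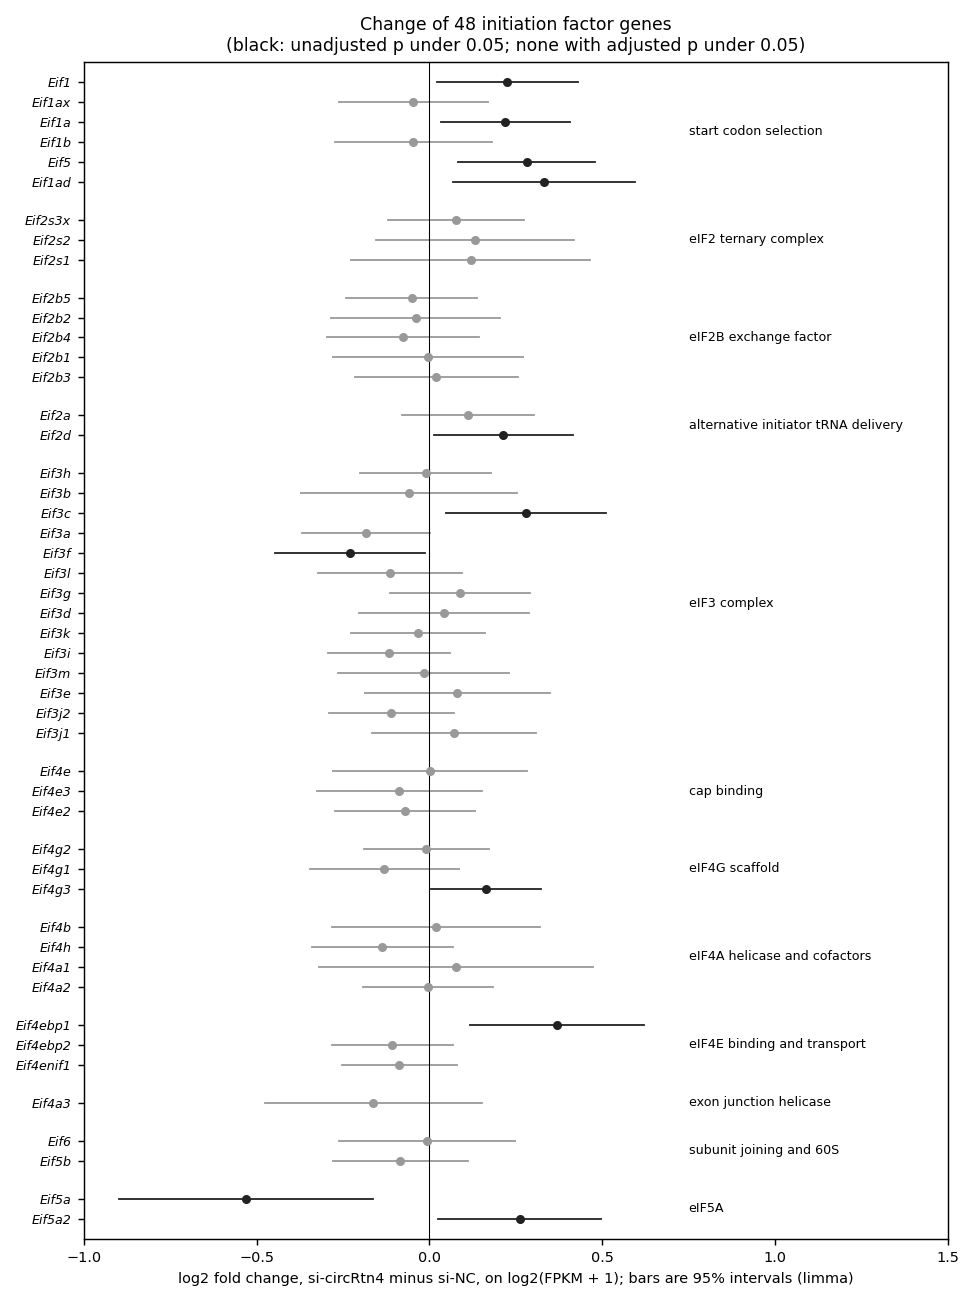
Log2 fold change (si-circRtn4 minus si-NC, on log2(FPKM + 1)) of each tested gene with its 95% limma interval, by role. Black marks the 11 genes with an unadjusted p under 0.05, of which Eif5a (-0.53) and Eif3f (-0.23) are negative and Eif4ebp1 (0.37) is the most positive.

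None of the 6 genes counted as factors of start codon selection passed the test. Their median log2 fold change was 0.22, and 4 of the 6 were higher at an unadjusted p under 0.05, against 13.1% of all genes. The 6 include Eif1ad, grouped here for its domain, which had the most positive value of them. Eif1 read 338, 301 and 328 FPKM in si-NC libraries 1, 2 and 3, and 400.4, 351 and 379.8 FPKM in si-circRtn4 libraries 1, 2 and 3. The groups did not overlap, although si-circRtn4 replicate 2 was only just above the highest control. The log2 fold change was 0.23 (SE 0.0876, limma adjusted p = 0.157). Eif1b, a close relative of Eif1, had 44.9, 40.4 and 35.9 FPKM against 40.9, 36.3 and 39.7 FPKM, with full overlap (log2 fold change -0.05). Eif1 accordingly made 88.2% to 90.1% of the summed FPKM of the pair in si-NC libraries and 90.5% to 90.7% in si-circRtn4 libraries.

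Eif5 encodes the GTPase-activating protein that lets eIF2 hydrolyze its GTP once a start codon is found. Its levels were 26.6, 30.1 and 32.0 FPKM in si-NC libraries and 35.8, 37.2 and 35.1 FPKM in si-circRtn4 libraries, again with no overlap. The log2 fold change was 0.28 (SE 0.0849, limma adjusted p = 0.0828, and 0.0463 with the replicate block, in a range of 0.0318 to 0.207 over the alternatives). Within replicate numbers 1, 2 and 3 the log2 differences were 0.42, 0.30 and 0.13, all in 1 direction.

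Eif1ad encodes a nuclear protein with an eIF1A-like domain. Its levels were 17.1, 19.2 and 21.3 FPKM in si-NC libraries and 21.2, 26.4 and 25.7 FPKM in si-circRtn4 libraries. The groups touched, since si-circRtn4 replicate 1 lay at the level of si-NC replicate 3. The log2 fold change of 0.33 (SE 0.113) had a limma adjusted p of 0.116, and of 0.0214 (with the replicate block) to 0.279 over the alternatives, and within-number differences were 0.30, 0.44 and 0.26.

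The eIF1A proteins, which with eIF1 hold the small subunit open for scanning, come from the paralogs Eif1a and Eif1ax. Eif1a read 36.8, 39.99 and 42.5 FPKM in si-NC libraries and 45.9, 48.9 and 44.4 FPKM in si-circRtn4 libraries, with no overlap (log2 fold change 0.22, SE 0.0802, limma adjusted p = 0.137). Eif1ax, on the X chromosome, overlapped fully at 40.1 to 46.6 FPKM and 38.6 to 45.6 FPKM (log2 fold change -0.05). The share of Eif1a in the summed FPKM of the pair was 47.0% to 47.9% in si-NC libraries and 49.4% to 54.3% in si-circRtn4 libraries. That share did not overlap between groups, and it was not tested.

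None of the ternary complex genes passed the test. Eif2s1, which encodes the phosphorylated α subunit, had 19.2, 27.7 and 25.9 FPKM in si-NC libraries and 22.9, 29.5 and 26.4 FPKM in si-circRtn4 libraries, fully overlapping (log2 fold change 0.12, interval -0.23 to 0.47, limma adjusted p = 0.669). Eif2s2 (β) had a log2 fold change of 0.13 and Eif2s3x (γ) of 0.08. Eif2s3x was the most abundant of the 3, at a mean of 32.8 FPKM, and the intervals of all 3 included zero. Eif2s3y, the Y-linked copy of the γ subunit gene, had 0 reads in all 6 libraries, where 3 reads would have been 0.0463 to 0.0515 FPKM.

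For eIF2B, which recharges eIF2 with GTP, all 5 subunit genes had log2 fold changes between -0.08 and 0.02, and the 4 negative ones turned positive with TPM. The catalytic subunit gene Eif2b5 was the most abundant at a mean of 41.9 FPKM, and the log2 fold change furthest from zero was that of Eif2b4 (-0.08, interval -0.30 to 0.14). Eif2b3 was the scarcest at a mean of 5.201 FPKM, and Eif2b5 exceeded it 7.96 to 8.77 fold in si-NC libraries and 7.75 to 8.11 fold in si-circRtn4 libraries. Over the 5 genes, the interval bounds furthest from zero were -0.30 and 0.27.

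Outside the eIF2 complex, the proteins eIF2A and eIF2D can deliver initiator tRNA. Eif2d, at the low end of the range, read 2.88, 2.66 and 2.99 FPKM in si-NC libraries and 3.44, 3.43 and 3.49 FPKM in si-circRtn4 libraries. The si-circRtn4 values were close together and above every control (log2 fold change 0.21, SE 0.0861, limma adjusted p = 0.170). These levels rest on 283 to 394 reads per library. Eif2a, the more abundant at a mean of 16.6 FPKM, had a log2 fold change of 0.11 with overlapping groups.

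The 14 genes of eIF3, the largest factor, had a median log2 fold change of -0.02, with 5 positive and 9 negative. Its core subunit genes had differences of opposite sign. Eif3c read 120.3, 128 and 147 FPKM in si-NC libraries and 146, 169 and 165 FPKM in si-circRtn4 libraries. The lowest si-circRtn4 library lay at the level of the highest control. The log2 fold change was 0.28 (SE 0.0994, limma adjusted p = 0.127, and 0.0387 with the replicate block, in a range of 0.0364 to 0.294 over the alternatives).

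Eif3a, whose product pairs with the Eif3c product in the core, read 108, 113 and 121 FPKM in si-NC libraries and 100.4, 94.6 and 106 FPKM in si-circRtn4 libraries, all below the controls. Its log2 fold change was -0.18 (SE 0.0799, limma adjusted p = 0.199). The ratio of Eif3c to Eif3a levels, in FPKM, was 1.11, 1.13 and 1.21 in si-NC libraries and 1.46, 1.78 and 1.55 in si-circRtn4 libraries. This ratio was chosen after the values were seen and was not tested.

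Eif3f, an MPN-domain subunit, read 126, 109 and 111 FPKM in si-NC libraries and 95.2, 91.7 and 107 FPKM in si-circRtn4 libraries, with no overlap. Its log2 fold change was -0.23 (SE 0.0929, limma adjusted p = 0.170), and 0.0992 was the adjusted p with the replicate block, the lowest of the alternatives, which reached 0.398. The other MPN-domain subunit gene, Eif3h, was the most abundant of the complex at 262 to 296 FPKM, with a log2 fold change of -0.01 whose sign turned under other scalings. The remaining 10 genes, Eif3b, Eif3d, Eif3e, Eif3g, Eif3i, Eif3k, Eif3l, Eif3m, Eif3j1 and Eif3j2, had log2 fold changes from -0.12 to 0.09 and overlapping groups. Subunits that sit in 1 complex differed widely in level, from 7.78 FPKM for Eif3j1 to 275.0 FPKM for Eif3h.

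Among cap-binding genes, Eif4e encodes the protein that recognizes the mRNA cap in canonical initiation. It read 17.1, 21.5 and 21.8 FPKM in si-NC libraries and 17.8, 22.4 and 20.1 FPKM in si-circRtn4 libraries. The groups overlapped fully, the log2 fold change was 0.00, and its 95% interval ran from -0.28 to 0.28. Eif4e2 (4EHP, which binds caps without recruiting eIF4G) and Eif4e3 had log2 fold changes of -0.07 and -0.09. Eif4e1b had 0 to 2 reads per library and was not tested.

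Eif4ebp1 was the initiation factor gene with the smallest adjusted p. It read 149, 119 and 148 FPKM in si-NC libraries (139 ± 17.2, SD, n = 3) and 175, 192 and 169.7 FPKM in si-circRtn4 libraries (179 ± 11.7, SD, n = 3). All si-circRtn4 libraries lay above all controls, with si-NC replicate 2 the lowest of the 6. The log2 fold change was 0.37 (SE 0.108, limma adjusted p = 0.0755), and within replicate numbers 1, 2 and 3 it was 0.23, 0.69 and 0.19. The replicate block left the adjusted p at 0.0688, without si-NC replicate 2 it was 0.199, and over all alternatives it ran from 0.0237 to 0.206.

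The other 4E-BP genes were not higher. Eif4ebp2, the form that predominates in brain, read 59.1, 59.2 and 53.6 FPKM in si-NC libraries and 54.0, 50.7 and 54.6 FPKM in si-circRtn4 libraries (log2 fold change -0.11, interval -0.28 to 0.07). Eif4ebp3 was under the filter at 1.16, 0.373 and 0.960 FPKM against 0.567, 0.604 and 0.462 FPKM, from 4 to 13 reads. Eif4ebp1 therefore made 71.3%, 66.7% and 73.1% of the summed 4E-BP FPKM in si-NC libraries and 76.3%, 78.9% and 75.5% in si-circRtn4 libraries. The ratio of Eif4ebp1 to Eif4e levels was 8.76, 5.55 and 6.78 in si-NC libraries and 9.83, 8.58 and 8.42 in si-circRtn4 libraries, where the groups overlapped. Eif4enif1, which encodes the 4E-T protein that carries eIF4E into the nucleus and represses bound mRNAs, had a log2 fold change of -0.09 at a mean of 18.3 FPKM.

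None of the 3 scaffold genes passed the test. Eif4g3 read 29.6, 30.7 and 31.6 FPKM in si-NC libraries and 34.4, 33.1 and 35.7 FPKM in si-circRtn4 libraries, without overlap (log2 fold change 0.16, SE 0.0686, limma adjusted p = 0.186). Eif4g1, the major scaffold, read 119.8, 137 and 134 FPKM against 107, 125 and 124 FPKM, with overlap (log2 fold change -0.13, adjusted p = 0.428). Eif4g2 (DAP5), a relative that lacks the eIF4E-binding site, was the most abundant at a mean of 138 FPKM, with a log2 fold change of -0.01. Eif4g3 made 9.86% to 10.7% of the summed FPKM of the 3 genes in si-NC libraries and 11.3% to 12.4% in si-circRtn4 libraries.

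The helicase genes Eif4a1 and Eif4a2 had log2 fold changes of 0.08 and 0.00 and overlapped between groups. The spread of Eif4a1 was wide, from 40.1 to 58.1 FPKM in si-NC libraries and from 44.0 to 59.6 FPKM in si-circRtn4 libraries, with replicate 1 the lowest of either group. Of the eIF4A cofactors, Eif4b was the more abundant at a mean of 159.9 FPKM (log2 fold change 0.02). Eif4h had the largest difference of the group (log2 fold change -0.14, interval -0.34 to 0.07, adjusted p = 0.380). Eif4a3, a helicase of the exon junction complex that was grouped apart here, had a log2 fold change of -0.16 at a mean of 63.2 FPKM, also overlapping.

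Late steps were represented by Eif5b, the GTPase that joins the subunits, and Eif6, which keeps the large subunit from joining early. Eif5b had a log2 fold change of -0.08 at a mean of 19.0 FPKM and Eif6 of -0.01 at a mean of 45.4 FPKM. Libraries overlapped for both, and the sign of each turned when libraries were scaled to equal FPKM sums.

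The eIF5A genes held the largest difference, and their differences had opposite signs. Eif5a, at chr11:69916714-69921958 on the minus strand, read 314, 389 and 392 FPKM in si-NC libraries (365 ± 44.5, SD, n = 3) and 199, 284 and 279.6 FPKM in si-circRtn4 libraries (254 ± 47.6, SD, n = 3). Every si-circRtn4 library lay below every control, and replicate 1 was the lowest of either group. The log2 fold change was -0.53 (SE 0.158, interval -0.90 to -0.16, limma adjusted p = 0.0799). Taken within replicate numbers 1, 2 and 3 it was -0.65, -0.45 and -0.49, and with the replicate block the adjusted p was 0.00891, the lowest of the alternatives, which reached 0.232 without the filter on low values. By exact permutation (two-sided) p was 0.1, the smallest value possible with 3 libraries per group.

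Eif5a2, the scarce paralog that carries the same hypusine modification, read 5.42, 7.08 and 6.48 FPKM in si-NC libraries and 8.11, 7.27 and 7.85 FPKM in si-circRtn4 libraries. The groups did not overlap (log2 fold change 0.26, SE 0.101, limma adjusted p = 0.157). Its share of the summed FPKM of the pair was 1.70%, 1.79% and 1.62% in si-NC libraries and 3.91%, 2.498% and 2.73% in si-circRtn4 libraries, so Eif5a remained the dominant form in all 6. The sum of the pair was 319, 396 and 399 FPKM in si-NC libraries and 207, 291 and 287 FPKM in si-circRtn4 libraries. Dhps, which encodes the first enzyme of hypusine synthesis, had a log2 fold change of 0.42 (adjusted p = 0.118, and 0.0267 with the replicate block), and Dohh, the second enzyme, of -0.19 (adjusted p = 0.344).

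**Figure D3:**
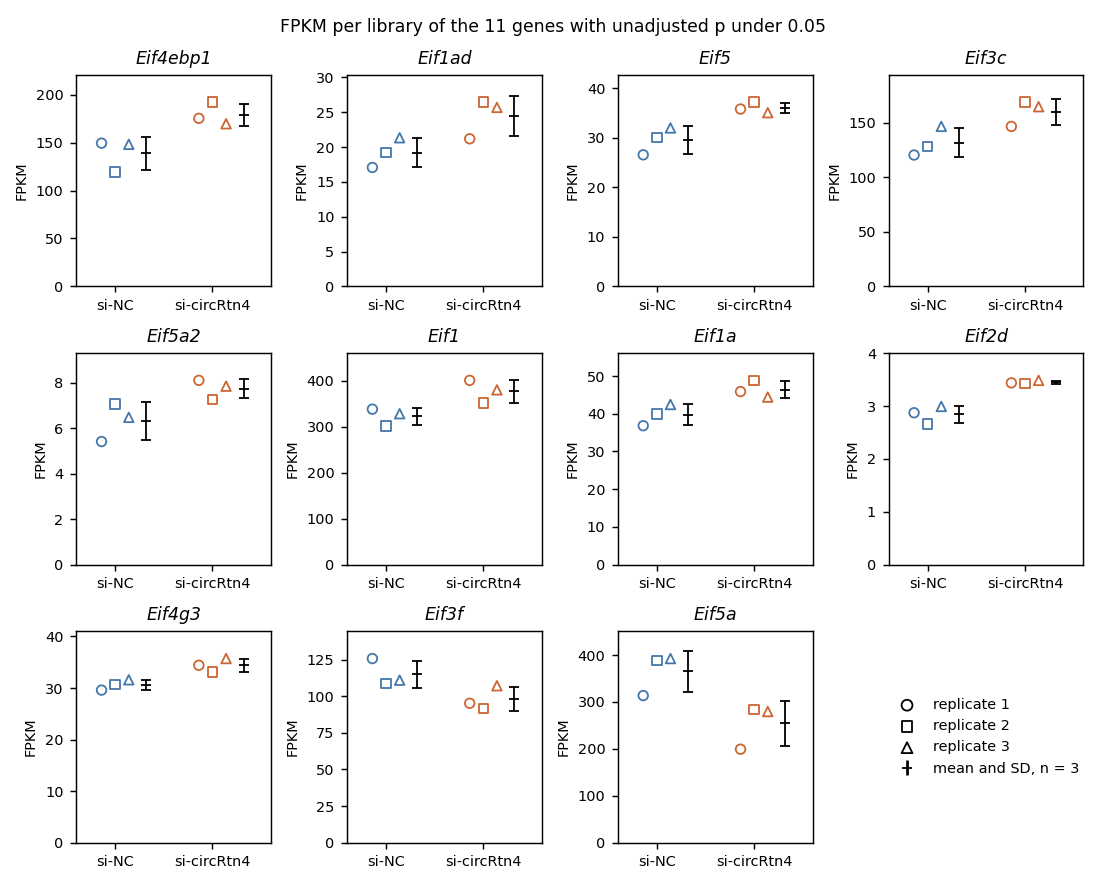
FPKM per library of the 11 genes with an unadjusted p under 0.05 (linear axes from 0; circle, square and triangle are replicates 1, 2 and 3; bars are mean and SD, n = 3). The si-circRtn4 points lie above the si-NC points for 7 genes, below for Eif3f and Eif5a, and just meet them for Eif1ad and Eif3c.

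The replicate numbers marked a shared shift in these genes. The si-NC library with number 1 held the lowest si-NC level for 37 of the 48 genes (77.1%), against 40.4% of all genes tested. The si-circRtn4 library with number 1 held the lowest level of its group for 30 of the 48 (62.5%), against 37.0%. Both held for 28 of the 48 (58.3%), against 22.9%. Part of this joint count follows from the high single shares, and a link beyond them was not tested. What the shared number stands for is not given in the labels, and its part in the results was not tested beyond the block.

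**Figure D4:**
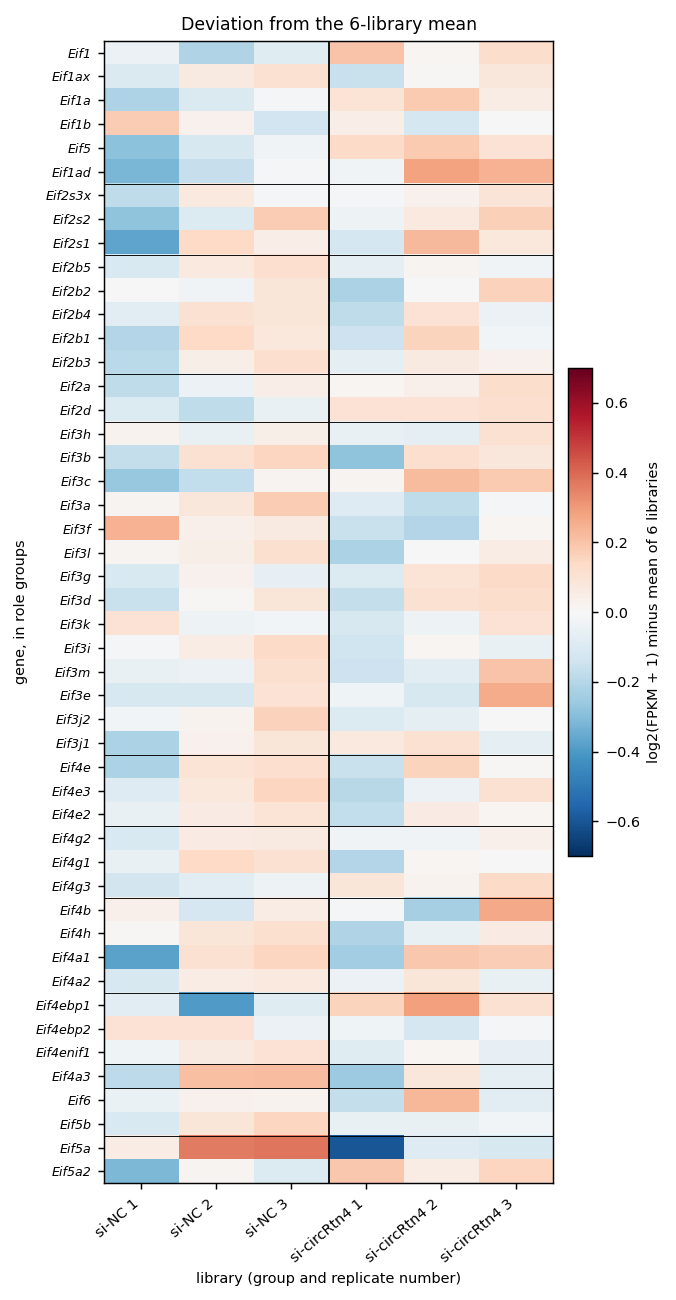
Deviation of log2(FPKM + 1) from the mean of the 6 libraries for each gene (rows, by role) and library (columns). Blue, low values collect in si-NC 1 and si-circRtn4 1, which hold the lowest level of their group together for 28 of the 48 genes, and Eif5a shows the widest span.

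Calls depended on the fit. With limma-voom on recovered reads, 5 of the 48 genes were called (Eif4ebp1, Eif3c, Eif5 and Eif1ad higher, Eif5a lower), against 12.8% of all genes. With TPM, Eif1a, Eif1ad, Eif3c, Eif4ebp1 and Eif5 were called, all higher, against 10.8% of all genes. Quantile normalization called Eif3c higher and Eif5a lower, against 9.81% of all genes. No initiation factor gene was called when any 1 library was left out, with a pseudocount of 0.1, without the filter, or with TPM computed without Gm23935, a very short gene that holds 13.5% to 20.7% of the FPKM sum.

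**Figure D5:**
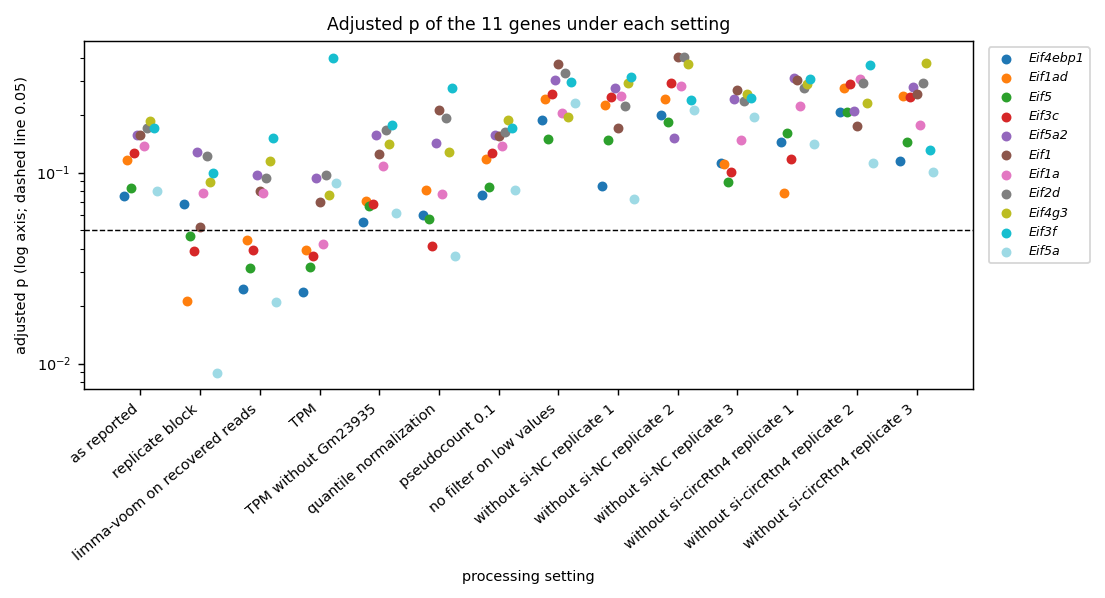
Adjusted p (log axis) of the 11 genes with an unadjusted p under 0.05 in the fit as reported and in each alternative, with the threshold of 0.05 dashed. Points fall under the line in the replicate block, limma-voom, TPM and quantile settings, the lowest being Eif5a at 0.00891 with the block.

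Several genes have near-identical copies that may share reads. A transcript of another gene matched at least 95% of the bases over at least 50% of the coding sequence for 16 of the 51 genes, and for 9 of them such a copy was itself listed at a mean of at least 1 FPKM. The levels of these 9, Eif1, Eif2s2, Eif2s3x, Eif3e, Eif3j1, Eif3j2, Eif3m, Eif4a1 and Eif4e, are therefore uncertain. Eif4a1 stood at 52.8 FPKM beside Eif4a-ps4 at 39.9 FPKM (99.9% identity) and Eif2s2 at 29.8 FPKM beside Gm9892 at 24.4 FPKM (99.5% identity). Eif3j1 at 7.78 FPKM and Eif3j2 at 10.9 FPKM match each other fully (100% identity over the part aligned). None of Eif5a, Eif4ebp1, Eif5, Eif3c, Eif1ad or Eif5a2 had a copy at that level.

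The wider translation machinery was counted in 4 lists, drawn from textbook knowledge with earlier results of these data known. In these lists 4 of 56 tested genes rose (7.14%, against 4.36% of all genes) and none fell. The 4 include Mcts1 and Mcts2, near copies of each other. Of the 7 tested eIF2 kinase and phosphatase genes, Ppp1r15a rose and the 4 kinase genes did not pass. Ppp1r15a (GADD34) brings a phosphatase to eIF2α. It read 35.0, 26.1 and 34.0 FPKM in si-NC libraries and 76.1, 80.1 and 56.9 FPKM in si-circRtn4 libraries, far from overlap (log2 fold change 1.14, limma adjusted p = 0.00734). That call held without any 1 library, at adjusted p of 0.00866 to 0.0331. The constitutive partner gene Ppp1r15b had a log2 fold change of -0.01.

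None of 16 genes of mTOR and MNK signaling to eIF4E passed, with a median log2 fold change of 0.03. Mtor itself had -0.07 and Rps6kb1 (S6 kinase 1) -0.06. The 2 with an unadjusted p under 0.05 were Mlst8 (-0.28) and Tsc1 (0.24). Their limma adjusted p was 0.113 and 0.0992, and 0.0835 and 0.0516 with the replicate block. Of 22 other initiation proteins, Mcts1 and Mcts2 rose (log2 fold changes 0.30 and 0.44, limma adjusted p = 0.0400 and 0.0217). They encode partners of DENR in recycling and reinitiation, and as near copies of each other they are uncertain. Of 11 tested elongation and release factor genes, Etf1, which encodes the release factor eRF1, rose from 27.8, 33.7 and 38.8 FPKM to 45.7, 53.0 and 56.0 FPKM (log2 fold change 0.62, adjusted p = 0.0298).

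Of the 4 calls in these lists, 2 were left without each of si-NC replicates 1, 2 and 3 and without si-circRtn4 replicate 1, and 1 without si-circRtn4 replicate 2 or 3. Without the filter on low values Ppp1r15a alone passed, while Etf1, Mcts1 and Mcts2 had adjusted p of 0.0987, 0.0644 and 0.0683. With limma-voom Mcts1 and Mcts2 had 0.05003 and 0.0694. Mcts1 lost its call without any 1 library, at adjusted p of 0.0734 to 0.117. Etf1 lost it without si-NC replicate 1 or 2 or si-circRtn4 replicate 2 or 3, at up to 0.0971. Mcts2 kept it only without si-NC replicate 1 or 2, and had 0.0589 to 0.0799 without the others.

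Translation of Atf4 mRNA is itself a readout of eIF2α phosphorylation, so ATF4 and its targets were counted. Neither that phosphorylation nor translation of Atf4 was measured in these data, and the cause of the changes below was not tested. Of 18 tested, 5 rose (27.8%, against 4.36% of all genes: Atf3, Cebpb, Slc7a11, Pycr1 and Phgdh, log2 fold changes 0.62 to 0.89) and none fell, with a median of 0.21 over the list against 0.00 for all genes. Atf4 mRNA read 392, 350.0 and 441 FPKM in si-NC libraries and 414, 468 and 457 FPKM in si-circRtn4 libraries, overlapping (adjusted p = 0.332). Of other targets of ATF4, Trib3 and Ddit3 had log2 fold changes of 0.63 and 0.53 (adjusted p = 0.0641 and 0.0748) and Asns, Psat1 and Chac1 of 0.13, -0.06 and 0.18, and none of these passed. Without the filter on low values only Pycr1 of the 5 passed (0.0335), and the adjusted p of Atf3, Cebpb, Slc7a11 and Phgdh was 0.0574, 0.1154, 0.0879 and 0.0756. Atf3 and Pycr1 passed without any 1 library, at adjusted p of 0.0212 to 0.0483 and 0.0137 to 0.0341. Phgdh lost its call without si-NC replicate 1 or 2 or si-circRtn4 replicate 2 or 3, at up to 0.0725. Slc7a11 lost it without any library except si-NC replicate 3, at up to 0.0758. Cebpb lost it without si-NC replicate 2 or 3 or si-circRtn4 replicate 1 or 2, at up to 0.1065.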

How the data were processed

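RNA-seq was analyzed in 6 libraries of N2a cells, grouped and numbered by the sample labels (3 si-NC and 3 si-circRtn4). The authors deposited FPKM values per gene. The submitters' processing notes list Bowtie 0.12.2 and the builds mm8 and mm9, whereas 98.3% of the deposited genes have the coordinates of GENCODE M21 (GRCm38). The counting tool and annotation are not given in the sources used here. The table holds 6 more sample columns, which were not used. FPKM times gene length gave whole multiples of 1 step, within 0.01, for 100% of values, which set the reads per library. Counting error is only part of the spread.

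A two-sided limma fit (version 3.58.1, R 4.3.3, with a trended prior) was made on log2(FPKM + 1) of 12749 genes, those averaging 1 FPKM or more, with Benjamini-Hochberg adjustment over all 12749 and a threshold of 0.05. Fold changes on this scale understate changes of low genes. The genes, lists and comparisons were chosen with earlier results of these data known. Genes named were the members with an adjusted p under 0.05, all of the eIF4E-binding group, the largest difference and highest level of each role group, those under the filter, called genes of each list (at most 5) and Rtn4. Members with an unadjusted p under 0.05, Eif3a and the others named were added after their values were seen.

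Deviations from group means correlated at 0.331, 0.19 and 0.226 for libraries of the same number and at most 0.00913 for others. Deviations within a group sum to zero for each gene, so positive values for the same number push the others down. The contrast between them is therefore partly built in. The pairing is a hint from the data, since the labels do not say what a number stands for, and a replicate block was fitted as an alternative. The others were limma-voom, other scalings, pseudocount 0.1, no filter and each library left out. Copies were found with blastn 2.17.0, and Python 3.11.15 was used for the rest.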

Additional observations from a re-analysis of the deposited data

How the results depend on the processing

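None of the 48 initiation factor genes was called in the fit as reported. The alternatives that called any were TPM (5 higher), quantile normalization (1 higher, 1 lower), limma-voom (4 higher, 1 lower) and the replicate block (3 higher, 1 lower). Over all genes, 556 rose and 615 fell as reported. The counts were 210 and 261 without the filter on low values, 977 and 400 with TPM, and 1185 and 1243 with the replicate block, and 902 rose with limma-voom. With 1 library left out they ran from 163 to 407 higher and from 217 to 419 lower, the fewest without si-NC replicate 2. The other translation genes called higher were 4 as reported, 1 without the filter and 1 to 2 with a library left out. In the pathway and ATF4 lists the replicate block ended no call and added Dhps, Eef1a2 and Trib3, and Rtn4 passed with it. TPM moved the median log2 fold change of all genes to 0.08.

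With TPM the signs of 16 of the 48 turned positive (0.0014 to 0.0868), among them Eif2b4 (0.012), Eif2b5 (0.040), Eif3h (0.082), Eif4enif1 (0.0014), Eif4g2 (0.084), Eif5b (0.0046) and Eif6 (0.085). In each other scaling 6 turned, among them Eif3h, Eif4g2 and Eif6, with values of 0.011, 0.013 and 0.016 with TPM without Gm23935, 0.019, 0.0092 and 0.023 with quantile normalization, and 0.012, 0.014 and 0.018 with limma-voom. With a library left out 5 to 10 turned, and log2 fold changes ran from -0.066 to 0.022 for Eif3h, from -0.064 to 0.020 for Eif4g2, from -0.124 to 0.077 for Eif6, from -0.109 to 0.1395 for Eif4b and from -0.107 to 0.082 for Eif4e. The causes were not tested.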

Other observations

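Promoter windows of 250 bases before to 50 after the annotated start (RefSeq, GRCm38.p6) were matched for 39 of the 51 genes. The E-box CACGTG, the same on both strands and known as a site of MYC-family and related factors, was found in a window of 10 of the 39 (25.6%), against 12% of the tested genes with a window and 8.09% of all genes with one. They were Eif4e, Eif3a, Eif3f, Eif3k, Eif4a1, Eif4h, Eif4g1, Eif5a, Eif5a2 and Eif1b. Genes with several annotated starts, such as Eif5a, had several windows and counted if any held the letters. The difference in share was not tested. TGACGTCA was found in none, against 3.91% of the tested genes with a window and 2.03% of all genes with one. TGATGNAA on either strand was found in Eif2s3x alone (2.56%, against 2.69% and 4.51%). A start of C followed by at least 4 pyrimidines was found in Eif2s3x and Eif3f (5.13%, against 3.1% and 3.01%). These shares were not tested either. A match is a description of these letters, and a lack of one says nothing of the factor.

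Windows are shown for the eIF5A pair, which had log2 fold changes of opposite sign, with the E-boxes in capitals. The part of the E-box in the results was not tested. They lie at chr11:69921337-69921636 on the minus strand for Eif5a and at chr3:28781027-28781326 on the plus strand for Eif5a2. The first bases of the E-boxes stand 74 bases before the start of the window shown for Eif5a, and 142 and 117 bases before that for Eif5a2. Eif5a has other annotated starts. In the overlapping window at chr11:69921226-69921525 the same E-box stands 185 bases before the start. A separate E-box stands 178 bases before the start in the window at chr11:69920581-69920880. The windows at chr11:69920898-69921197, chr11:69921036-69921335 and chr11:69921909-69922208, the last being the furthest upstream, hold none.
Eif5a: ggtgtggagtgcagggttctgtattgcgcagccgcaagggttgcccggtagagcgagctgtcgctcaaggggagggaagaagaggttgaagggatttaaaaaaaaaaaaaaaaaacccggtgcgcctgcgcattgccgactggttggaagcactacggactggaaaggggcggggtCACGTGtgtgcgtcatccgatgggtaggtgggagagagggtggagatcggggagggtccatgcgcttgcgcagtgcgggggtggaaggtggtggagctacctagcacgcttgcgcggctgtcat
Eif5a2: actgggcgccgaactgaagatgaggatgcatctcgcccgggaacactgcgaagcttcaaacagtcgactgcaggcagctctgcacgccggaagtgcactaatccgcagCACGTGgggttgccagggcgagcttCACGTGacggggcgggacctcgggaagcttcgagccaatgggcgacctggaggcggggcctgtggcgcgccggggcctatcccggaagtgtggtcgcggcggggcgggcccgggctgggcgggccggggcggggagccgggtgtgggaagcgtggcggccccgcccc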
